A study of Mus musculus and Homo sapiens with 23 samples.

Results

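Krueppel-like factors (KLFs) are zinc finger transcription factors, and the genes described here are the 10 members Klf2, Klf3, Klf4, Klf6, Klf7, Klf9, Klf10, Klf11, Klf13 and Klf16. They were taken by symbol from the expression tables of BV2, an immortalised mouse microglial cell line (microglia are the macrophages that live in the brain). All 10 were found, each as 1 RefSeq transcript row, among 21593 genes measured. The LPS library came from BV2 cells exposed for 3 h to lipopolysaccharide (LPS), a cell wall component of Gram-negative bacteria, and the unstimulated library came from BV2 cells without it. The labels give no other treatment or genetic change for either library. The series followed the histone mark H2BK20ac in several cell types and through the LPS response of microglia, and its 21 chromatin samples were not analysed here.

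KLF proteins share a C-terminal block of zinc fingers that binds GC-rich and CACCC-type DNA, and they differ in the N-terminal part that recruits partners. Klf2, Klf4, Klf6 and Klf7 belong to a subgroup that mainly activates transcription, Klf3 recruits the corepressor CtBP, and Klf9, Klf10, Klf11, Klf13 and Klf16 recruit the corepressor Sin3. In macrophages Klf2 and Klf4 are best known as brakes on inflammatory genes driven by NF-kB, Klf4 also as a factor of alternative activation, and Klf6 as a factor that promotes inflammatory gene expression.

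After LPS, Klf6, Klf3 and Klf2 rose, and none of the other 7 members passed the size threshold in either direction. Values are FPKM, fragments per kilobase of transcript, scaled to the mapped fragments of the library, which allows levels of different genes to be set side by side. A change is log2(FPKM + 1) in the LPS library minus log2(FPKM + 1) in the unstimulated library, and a gene was called higher or lower when the change was at least 1 in size. This is a fold of 2 on that scale, and at low FPKM it understates the change. By that rule 3 of the 10 members were higher, against a background of 8.54% of the 10034 genes that reached an FPKM of 1 in either library, and 0 were lower, against a background of 12.4%. The median change was -0.12 over the 10 members and -0.24 over those 10034 genes. There was 1 library per group, so no test across replicates was possible, and each difference is between these 2 libraries.

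Each FPKM is given with its deposited 95% interval, which covers counting and fragment assignment inside a library but not the spread between cultures. Those intervals were separate and higher after LPS for 3 members, against a background of 25.1%, and separate and lower for 5 members, against a background of 48.4%. They overlapped for Klf13 and Klf16. These shares are near the background, since the intervals were separate for 73.5% of the counted genes. The filter on low values touches the members. Klf2 reached an FPKM of 1 only in the LPS library, Klf7 and Klf10 only in the unstimulated library, and Klf11 in neither. Passing in 1 library alone favours a call in that direction. Klf11, among the 5 that were lower, is not among the counted genes that the backgrounds cover. In bulk RNA, fewer cells that express a gene and less of its RNA per cell cannot be told apart.

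**Figure D1:**
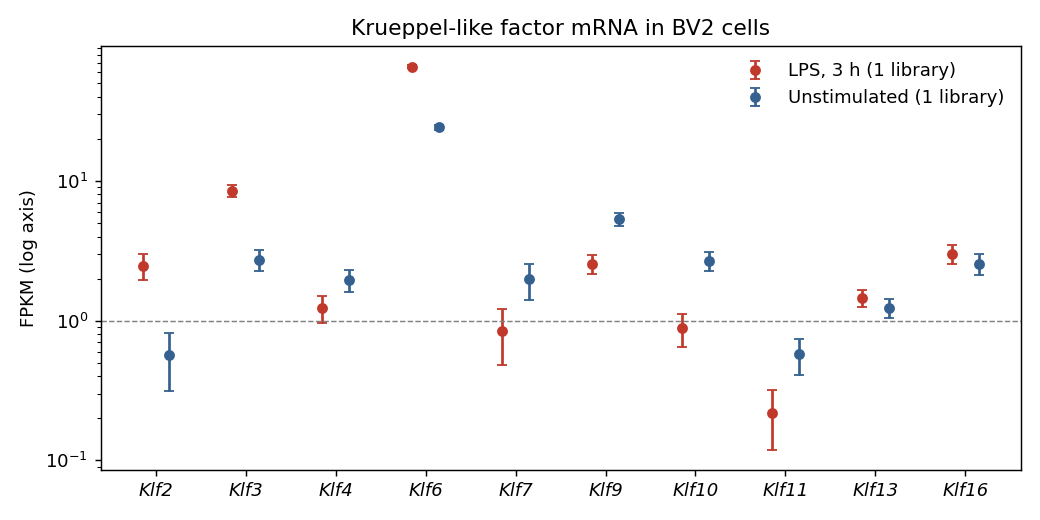
FPKM of each member on a log axis, with the LPS library (red) left of the unstimulated library (blue). Bars are the deposited 95% intervals of single libraries and the dashed line is an FPKM of 1. Klf6 lies at 65.6 after LPS and at 24.2 unstimulated, far above the other 9 members in both libraries.

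The libraries carried the marks of LPS-treated microglia-like macrophages. Tnf, an inflammatory cytokine, was at 735 FPKM after LPS, against 11.5 FPKM in unstimulated cells. Of 9 microglia and macrophage markers measured, 8 reached an FPKM of 1, but the markers of resting microglia were low: Tmem119 was at 0.601 FPKM after LPS and 2.16 FPKM unstimulated, P2ry12 at 0.223 FPKM after LPS and 1.19 FPKM unstimulated, and Cx3cr1 at 0.0615 FPKM after LPS and 0.142 FPKM unstimulated. Endothelium is another site of high Klf2 and Klf4. Of 5 endothelial markers, Kdr was the only member of its list to reach an FPKM of 1, at 4.79 after LPS and 5.45 unstimulated, and Cldn5 and Tek were at 0 in both libraries. The markers of neurons (5 genes), astrocytes (4 genes) and oligodendrocytes (4 genes) all stayed below an FPKM of 1, with summed levels after LPS of 0.171, 0.0376 and 0.523 FPKM, and of 0.0300, 0.0236 and 0.788 FPKM unstimulated. Among 4 lymphocyte markers Il7r was at 0.591 FPKM after LPS and 1.77 FPKM unstimulated, and the other 3 were at 0.

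The sequences before the transcription starts show what these genes share at their own promoters. RefSeq promoter sequences of build GRCm38.p6 were at hand for 8 of the 10 members. The GC content of the 250 bases before the start ran from 59.2% in Klf7 to 78.4% in Klf3, against a median of 52.4% and an upper quartile of 61.2% over all 32851 promoters in the table. Klf7 and Klf9 (59.6%) lay below that quartile and the other 6 above it. The box GGGCGG, read by Sp and KLF proteins, was present on either strand in 7 of 8, Klf9 being the exception, and in 32.7% of all promoters. The box CACCC, the classical KLF site, was present in 5 of 8 and in 52.0% of all promoters. The 4 sequences below are those of Klf6 and Klf3, which rose, and of Klf4 and Klf9, which were lower with separate intervals. They are shown for the boxes through which KLF and Sp proteins could read the promoters of KLF genes. Capitals mark GGGCGG and CACCC on either strand (CCGCCC and GGGTG are their complements).
Klf6: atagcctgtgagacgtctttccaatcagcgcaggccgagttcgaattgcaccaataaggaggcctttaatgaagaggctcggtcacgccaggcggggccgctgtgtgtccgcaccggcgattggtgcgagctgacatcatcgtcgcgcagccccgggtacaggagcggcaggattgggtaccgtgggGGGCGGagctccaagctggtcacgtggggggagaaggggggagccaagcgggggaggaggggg
Klf3: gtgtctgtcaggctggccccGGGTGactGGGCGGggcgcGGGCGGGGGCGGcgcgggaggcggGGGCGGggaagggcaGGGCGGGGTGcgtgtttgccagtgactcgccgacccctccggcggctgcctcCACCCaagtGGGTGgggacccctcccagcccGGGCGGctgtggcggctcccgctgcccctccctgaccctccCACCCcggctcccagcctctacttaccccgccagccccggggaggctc
Klf4: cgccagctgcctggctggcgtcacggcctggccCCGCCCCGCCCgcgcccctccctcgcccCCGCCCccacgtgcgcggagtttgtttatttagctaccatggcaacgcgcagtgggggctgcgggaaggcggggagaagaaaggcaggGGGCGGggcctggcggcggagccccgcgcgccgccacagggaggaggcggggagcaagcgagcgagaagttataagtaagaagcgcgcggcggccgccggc
Klf9: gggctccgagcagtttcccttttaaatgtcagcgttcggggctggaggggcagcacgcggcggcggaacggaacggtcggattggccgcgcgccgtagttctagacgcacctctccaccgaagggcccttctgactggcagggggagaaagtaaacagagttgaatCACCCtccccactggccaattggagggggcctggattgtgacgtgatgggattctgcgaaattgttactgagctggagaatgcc
The positions are chr4:55532476-55532725 (minus strand) for Klf4, chr13:5861239-5861488 (plus strand) for Klf6, chr5:64803271-64803520 (plus strand) for Klf3 and chr19:23140976-23141225 (plus strand) for Klf9. Klf3 held the most boxes, 6 of GGGCGG and 5 of CACCC, of which 1 pair shares a base. Klf4 held 4 of GGGCGG and Klf6 held 1, and neither held CACCC. The MEF2 motif was found in Klf2 alone, in 10 bases that begin 118 bases before the start, and in 2.92% of all promoters. The AP-1 motif TGANTCA was found in Klf9 alone, 89 bases before the start, where it shares 2 bases with the CACCC box, and in 6.75% of all promoters. The cyclic AMP response element TGACGTCA, the kappaB motif and the CArG motif were found in 0 of the 8 windows. They occurred in 1.55%, 3.90% and 1.47% of all promoters. A match is only a run of letters and does not show that a protein binds there. The deposited Klf3, Klf7 and Klf9 loci are 2774, 7181 and 1218 bases shorter than the genes in the RefSeq table, so their starts may differ from the starts used for these windows.

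Among the activator subgroup, Klf6 was the most abundant KLF and rose. Klf6 (mm9 chromosome 13, 5860735 to 5869639), an early response gene first described as a core promoter-binding protein, was at 65.6 FPKM (64.0 to 67.3) after LPS and at 24.2 FPKM (23.2 to 25.3) in unstimulated cells. The intervals lay far apart. The ratio of LPS to unstimulated was 2.71 (2.58 to 2.85), with 6078 fragments behind the LPS value and 2137 behind the unstimulated one, and the change of 1.40 ranked 572 of 10034 genes. Klf6 made up 75.7% of the summed FPKM of the 10 members after LPS, against 55.2% in unstimulated cells. The 10 members together summed to 86.8 FPKM (84.7 to 88.9) after LPS and to 43.9 FPKM (42.3 to 45.5) unstimulated. Without Klf6 the other 9 summed to 21.1 FPKM (19.9 to 22.4) after LPS and to 19.6 FPKM (18.4 to 20.9) unstimulated, intervals that overlapped.

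Klf2, which together with Klf11 was the scarcest member in unstimulated cells, rose. Klf2 (mm9 chromosome 8, 74842961 to 74845553), a regulator of quiescence in T cells, endothelium and myeloid cells, was at 2.47 FPKM (1.96 to 2.99) after LPS and at 0.565 FPKM (0.312 to 0.817) in unstimulated cells. The intervals were separate, and the values rest on 92 fragments after LPS and 20 unstimulated. The ratio of 4.38 (2.67 to 7.17) was the largest of the 10, although the change on the log2(FPKM + 1) scale, 1.15, was below that of Klf6 because the pseudocount weighs on low values. With a pseudocount of 5 the change was 0.43, short of the threshold. Klf2 ranked 5 of the 10 members by level after LPS and 10 of 10 unstimulated.

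Klf4, the relative of Klf2 in the same subgroup, did not rise and was slightly lower. Klf4 (mm9 chromosome 4, 55540009 to 55545347), a factor of monocyte differentiation, was at 1.24 FPKM (0.961 to 1.51) after LPS and at 1.96 FPKM (1.60 to 2.31) unstimulated. The intervals were separate but the change of -0.40 was within the threshold, and the ratio was 0.632 (0.475 to 0.842). That change is near the median of -0.24 over all counted genes. It was -0.16 after median scaling and -0.056 after quantile normalisation. There were 2.00 units of Klf2 FPKM for each unit of Klf4 FPKM after LPS (1.48 to 2.71), against 0.289 (0.178 to 0.468) in unstimulated cells. Such a ratio inside a library does not depend on how the libraries are scaled, and it differed 6.93-fold (3.92 to 12.3) between the libraries.

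Klf7 was likewise lower without passing the threshold. Klf7 (mm9 chromosome 1, 64082247 to 64167963), the closest relative of Klf6 and known from neuron outgrowth, was at 0.844 FPKM (0.484 to 1.20) after LPS and at 1.97 FPKM (1.41 to 2.54) unstimulated. The intervals were separate, but only 22 fragments after LPS and 49 unstimulated stand behind the values, and the ratio of 0.427 has the wide interval 0.256 to 0.714. The FPKM of Klf6 was 77.8 times that of Klf7 after LPS (50.7 to 119), against 12.3 times (9.20 to 16.4) in unstimulated cells, a 6.33-fold difference (3.78 to 10.6). The activator subgroup summed to 70.2 FPKM after LPS and 28.7 FPKM unstimulated, of which Klf6 alone made up 93.5% after LPS and 84.4% unstimulated. Klf2, Klf4 and Klf7 together summed to 4.55 FPKM (3.87 to 5.24) after LPS and 4.49 FPKM (3.78 to 5.21) unstimulated, and these intervals overlapped.

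**Figure D2:**
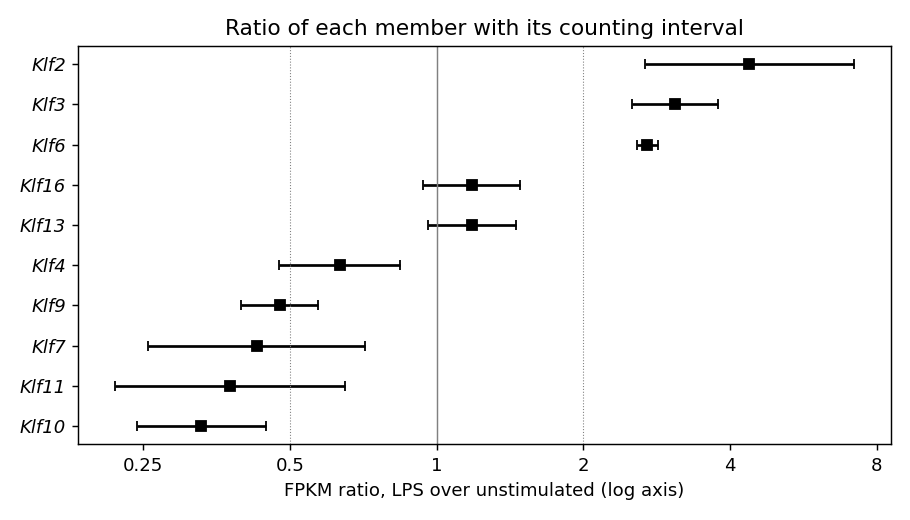
Ratio of FPKM, LPS over unstimulated, for each member on a log axis, with an interval from the fragment counts of both libraries. Dotted lines are ratios of 0.5 and 2. Klf2, Klf3 and Klf6 lie above 2 with their whole intervals, Klf13 and Klf16 straddle 1, and the other 5 lie below 1.

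Klf3, the CtBP-recruiting member, rose. Klf3 (mm9 chromosome 5, 65194762 to 65221368), a repressor known from red cell and B cell development, was at 8.46 FPKM (7.63 to 9.30) after LPS and at 2.74 FPKM (2.25 to 3.23) in unstimulated cells. The intervals were separate, with 412 fragments after LPS and 127 unstimulated, and the ratio was 3.09 (2.52 to 3.78). The change of 1.34 ranked 608 of 10034 genes. With a pseudocount of 5 it was 0.80 and no longer passed the threshold. The ratios of Klf2, Klf3 and Klf6 could not be told apart by counting: the ratio of Klf2 was 1.42 times that of Klf3 (0.832 to 2.42) and 1.62 times that of Klf6 (0.985 to 2.66), and the ratio of Klf3 was 1.14 times that of Klf6 (0.925 to 1.41).

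The Sin3-recruiting subgroup was lower in sum, at 8.11 FPKM (7.43 to 8.79) after LPS against 12.4 FPKM (11.5 to 13.3) in unstimulated cells. The difference lay mostly in Klf9 (-2.81 FPKM) and Klf10 (-1.81 FPKM), with Klf11 at -0.36 FPKM. Klf13 (0.22 FPKM) and Klf16 (0.46 FPKM) did not share it. Klf9 (mm9 chromosome 19, 23215716 to 23241401), a target of the glucocorticoid receptor, was at 2.55 FPKM (2.17 to 2.93) after LPS and at 5.36 FPKM (4.79 to 5.92) unstimulated. The intervals were separate, with 180 fragments after LPS and 360 unstimulated, and the ratio was 0.476 (0.397 to 0.571). The change of -0.84 was within the threshold, and it passed after rescaling to TPM, in which each library has the same total (-1.13), and with a pseudocount of 0.1 (-1.04). Other settings made it smaller: -0.60 after median scaling, -0.54 after quantile normalisation and -0.46 with a pseudocount of 5. The microRNA gene Mir1192 lies inside the Klf9 locus, and no other row of the tables overlaps any of the 10 loci.

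Klf10 and Klf11, the pair first described as early genes induced by TGF-beta, were both lower without passing the threshold. Klf10 (mm9 chromosome 15, 38224168 to 38230462) was at 0.885 FPKM (0.652 to 1.12) after LPS and at 2.69 FPKM (2.28 to 3.11) unstimulated. Its intervals were separate, and 58 fragments after LPS and 168 unstimulated give a ratio of 0.329 (0.242 to 0.446), the lowest of the 10. The change of -0.97 fell 0.030 short of the threshold, and rescaling to TPM (-1.32) or a pseudocount of 0.1 (-1.50) took it past. Other settings made it smaller: -0.73 after median scaling, -0.62 after quantile normalisation and -0.39 with a pseudocount of 5. Klf11 (mm9 chromosome 12, 25336236 to 25347647) was the scarcest KLF after LPS, at 0.218 FPKM (0.118 to 0.318), against 0.578 FPKM (0.411 to 0.745) unstimulated. Its ratio of 0.377 (0.219 to 0.648) rests on 19 fragments after LPS and 48 unstimulated. The change of Klf11 was -0.37, near the median of -0.24 over all counted genes. It was -0.14 after median scaling and -0.096 with a pseudocount of 5, but -0.62 after rescaling to TPM and -1.09 with a pseudocount of 0.1. The ratio of Klf10 to Klf11 was 4.06 (2.39 to 6.89) after LPS and 4.65 (3.36 to 6.46) unstimulated, and these intervals overlapped. They are wide, and the ratios of Klf4, Klf7 and Klf9 to Klf11 overlapped between the libraries as well. The overlap is therefore not particular to this pair.

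Klf13 and Klf16 showed no difference beyond their intervals. Klf13 (mm9 chromosome 7, 71031237 to 71083801), known from T cells as an activator of the chemokine gene Ccl5, was at 1.45 FPKM (1.25 to 1.65) after LPS and at 1.23 FPKM (1.04 to 1.42) unstimulated, a ratio of 1.18 (0.958 to 1.45). Klf16 (mm9 chromosome 10, 80029866 to 80040041), a regulator of dopamine receptor genes, was at 3.01 FPKM (2.55 to 3.47) after LPS and at 2.55 FPKM (2.11 to 2.98) unstimulated, a ratio of 1.18 (0.939 to 1.49). The changes of 0.14 and 0.18 turned to -0.0042 and -0.0037 after rescaling to TPM, so neither has a direction. The ratio of Klf13 to Klf16 was 0.481 (0.391 to 0.592) after LPS and 0.482 (0.383 to 0.607) unstimulated. Klf9 was lower relative to both after LPS. The ratio of Klf9 to Klf13 was 1.76 (1.44 to 2.16) after LPS and 4.36 (3.62 to 5.26) unstimulated, and the ratio of Klf9 to Klf16 was 0.847 (0.684 to 1.05) after LPS and 2.10 (1.72 to 2.57) unstimulated. The intervals of both ratios were separate, and after LPS that to Klf16 included 1.

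The order of levels within the family differed between the libraries. After LPS, Klf6 was first and Klf3 second, both with intervals separate from the rest. Klf16, Klf9 and Klf2 followed with overlapping intervals, then Klf13, Klf4, Klf10 and Klf7, each overlapping its neighbour in that order, and last Klf11. In unstimulated cells Klf6 was first and Klf9 second, both separate from the rest. Klf3, Klf10, Klf16, Klf7 and Klf4 followed with overlapping intervals between neighbours, Klf13 lay below Klf4 but overlapped Klf7, and Klf11 and Klf2 were last and overlapped. Of the 45 pairs of members, 33 had a within-library ratio that differed between the libraries by more than its counting interval. The matching share for pairs of other genes was not computed. For single genes, the intervals were separate for 73.5% of all counted genes, so such a count is not particular to the family.

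**Figure D3:**
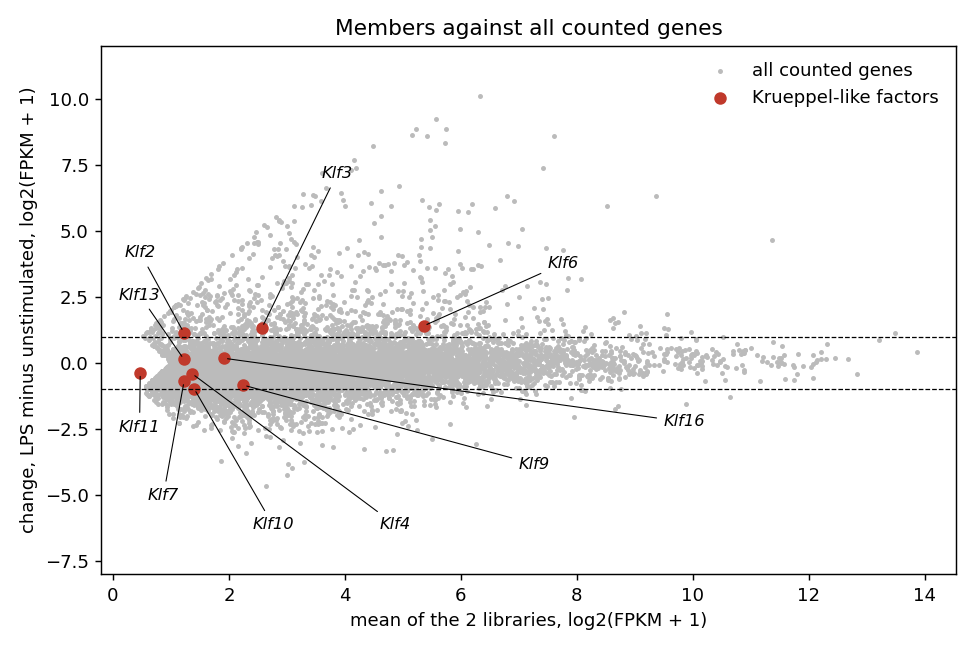
Change on the log2(FPKM + 1) scale against the mean of the 2 libraries for the 10034 counted genes (grey) and the 10 members (red). Dashed lines are the threshold of 1 in each direction. Klf2, Klf3 and Klf6 lie just above the upper line, at 1.15 to 1.40, and Klf10 at -0.97 lies just inside the lower one.

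The rest of the KLF family was not expressed at a level that could be compared. Of the 7 other KLF genes, 0 reached an FPKM of 1 in either library. Klf5, Klf8, Klf14, Klf15 and Klf17 were at 0 in both, and Klf12 was at 0.00784 FPKM, a single fragment, after LPS and at 0 unstimulated. Klf1, the red cell factor, was at 0.130 FPKM (0 to 0.261) after LPS and at 0.445 FPKM (0.198 to 0.692) unstimulated, on 4 fragments after LPS and 13 unstimulated.

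The Sp factors, zinc finger relatives that bind the same GC-rich boxes, were lower in part. Of 9 Sp genes 3 reached an FPKM of 1, of which 0 rose and 1 fell, against the same backgrounds of 8.54% and 12.4%, with a median change of -0.46. Sp3, an activator or repressor depending on the promoter, fell to 4.31 FPKM (3.71 to 4.92) after LPS, against 12.2 FPKM (11.3 to 13.1) in unstimulated cells. Its change of -1.32 became -0.89 with a pseudocount of 5. Sp1, the ubiquitous activator, was at 1.76 FPKM (1.56 to 1.96) after LPS and at 2.79 FPKM (2.53 to 3.05) unstimulated, and Sp2 was at 3.68 FPKM (3.16 to 4.20) after LPS and 2.32 FPKM (1.93 to 2.71) unstimulated, both within the threshold with separate intervals.

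Of the partners that KLF proteins recruit, 0 of 10 passed the threshold in either direction, against 21.0% of all counted genes, with a median change of -0.14. That count depends on the setting: 2 were lower after rescaling to TPM, 1 was lower with a pseudocount of 0.1 or with each transcript on its own, and 1 was higher after median scaling. Hdac1 and Hdac2 encode histone deacetylases of the Sin3 complex. Hdac1 was at 87.4 FPKM (84.5 to 90.4) after LPS and 49.8 FPKM (47.5 to 52.1) unstimulated, and Hdac2 was at 29.9 FPKM (28.2 to 31.6) after LPS and 54.2 FPKM (51.9 to 56.6) unstimulated, both with separate intervals and within the threshold. Ctbp1, the corepressor bound by Klf3, was at 34.4 FPKM (32.8 to 36.1) after LPS and at 35.8 FPKM (34.0 to 37.5) unstimulated, and Ctbp2 was at 14.3 FPKM (13.3 to 15.2) after LPS and 15.1 FPKM (14.1 to 16.1) unstimulated. Both pairs of intervals overlapped. Sin3a, the corepressor bound by Klf9 and its subgroup, was at 1.98 FPKM (1.50 to 2.47) after LPS and at 4.73 FPKM (1.98 to 7.48) unstimulated, with overlapping intervals. Sin3b was at 179 FPKM (173 to 185) after LPS and 113 FPKM (108 to 118) unstimulated, with separate intervals.

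Among 17 genes known to act upstream of KLF genes or proteins, 14 reached an FPKM of 1, of which 1 rose and 4 fell, against backgrounds of 8.54% and 12.4% of all counted genes, with a median change of -0.27. Mef2c and Tgfbr1, both among the 4, reached an FPKM of 1 only in unstimulated cells, which favours a call. Mef2c, a MEF2 factor that with its relatives switches on Klf2 and Klf4 downstream of the kinase ERK5, fell to 0.908 FPKM (0.712 to 1.10) after LPS, against 8.79 FPKM (8.16 to 9.42) in unstimulated cells. Its relative Mef2d fell to 11.0 FPKM (10.1 to 11.9) after LPS, against 25.2 FPKM (23.8 to 26.6) unstimulated. Mapk7, the gene of ERK5, was at 6.18 FPKM (5.55 to 6.81) after LPS and at 7.64 FPKM (6.93 to 8.36) unstimulated, within the threshold. Klf2 rose and Klf4 was lower in the same libraries, as given above. Wwp1, a ubiquitin ligase that targets KLF proteins, fell to 1.13 FPKM (0.930 to 1.33) after LPS, against 3.79 FPKM (3.41 to 4.17) unstimulated. Smurf1, another listed ubiquitin ligase gene, went the other way, at 3.97 FPKM (3.54 to 4.41) after LPS and 1.59 FPKM (1.35 to 1.83) unstimulated. Its intervals were separate, and its change of 0.94 was within the threshold. The listed ligase gene Fbxw7 stayed below an FPKM of 1 in both libraries.

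Of the TGF-beta arm that induces Klf10 and Klf11, the ligand gene Tgfb1 rose to 46.2 FPKM (44.2 to 48.3) after LPS, against 21.1 FPKM (19.6 to 22.5) in unstimulated cells, and the receptor gene Tgfbr1 fell to 0.603 FPKM (0.465 to 0.741) after LPS, against 2.69 FPKM (2.39 to 2.99) unstimulated. The other listed genes of this arm were within the threshold and mixed in direction. Tgfbr2 was lower, with a ratio of LPS to unstimulated of 0.644 (0.524 to 0.791). Smad2 (1.17, 1.05 to 1.31) and Smad4 (1.34, 1.16 to 1.54) were higher. Smad3 was lower (0.346, 0.235 to 0.511) but below an FPKM of 1 in both libraries. Nr3c1, the glucocorticoid receptor gene upstream of Klf9, was at 2.35 FPKM (2.09 to 2.61) after LPS and 2.77 FPKM (2.49 to 3.06) unstimulated, with overlapping intervals. The calls of Mef2d, Wwp1, Tgfbr1 and Tgfb1 were lost with a pseudocount of 5 (-0.92, -0.52, -0.46 and 0.97). Those of Mef2d, Wwp1 and Tgfbr1 were also lost after median scaling (-0.89, -0.93 and -0.97), those of Wwp1 and Tgfbr1 after quantile normalisation (-0.84 and -0.83), and that of Tgfb1 after rescaling to TPM (0.87).

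**Figure D4:**
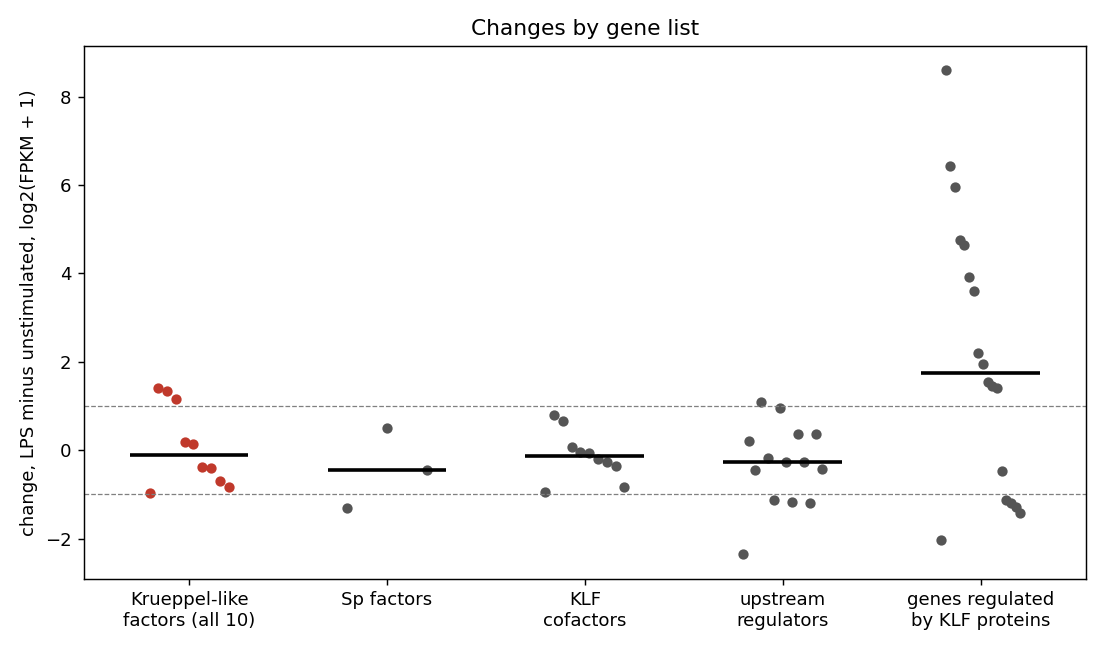
Change on the log2(FPKM + 1) scale, LPS minus unstimulated, of all 10 members and of the counted genes of 4 related lists. Points are genes, thick bars are medians and dashed lines the threshold of 1. The genes regulated by KLF proteins spread from -2.03 to 8.60, whereas the cofactors stay inside the threshold on this scale.

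A list of 22 genes that KLF proteins are known to regulate moved in both directions. Of 18 that reached an FPKM of 1, 12 rose and 5 fell, beside 8.54% higher and 12.4% lower among all counted genes, with a median change of 1.74. Of these 18, 3 reached it only after LPS and 2 only in unstimulated cells, which favours a call. The list holds many genes that LPS is known to induce, and no part of KLF proteins in these changes was tested. The 6 largest changes were rises, in the order Il1b, Nos2, Ccl2, Icam1, Ptgs2 and Cdkn1a, from 8.60 down to 3.91. Vcam1, an adhesion molecule repressed by Klf2 in endothelium, was at 3.58 FPKM (3.14 to 4.02) after LPS and listed at 0 in unstimulated cells, a call that was lost at 0.78 with a pseudocount of 5. Of the listed genes that Klf2 is known to activate in T cells or endothelium, Nos3 stayed below an FPKM of 1 and 2 fell. S1pr1, the receptor for lymphocyte exit, fell to 2.16 FPKM (1.80 to 2.53) after LPS, against 11.9 FPKM (11.0 to 12.8) unstimulated, and Thbd, the anticoagulant thrombomodulin, fell to 0.197 FPKM (0.0987 to 0.296) after LPS, against 2.20 FPKM (1.86 to 2.54) unstimulated. The change of Thbd, -1.42, was -0.47 with a pseudocount of 5.

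Over the 2 libraries, the counted genes with a pair of log2(FPKM + 1) values nearest to that of Klf6 were Psmd10, Cd83 and Cebpb, at distances of 0.07, 0.11 and 0.12. Cebpb, itself a transcription factor gene of the inflammatory response, was at 71.5 FPKM (68.4 to 74.6) after LPS and at 24.0 FPKM (22.2 to 25.8) unstimulated. For Klf10 the nearest were Mospd1, Thap2 and Peak1, at 0.01, 0.03 and 0.03, and 30 genes lay within 0.1 of it against 1 for Klf6. With 2 points such likeness only says that the levels were alike.

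**Figure D5:**
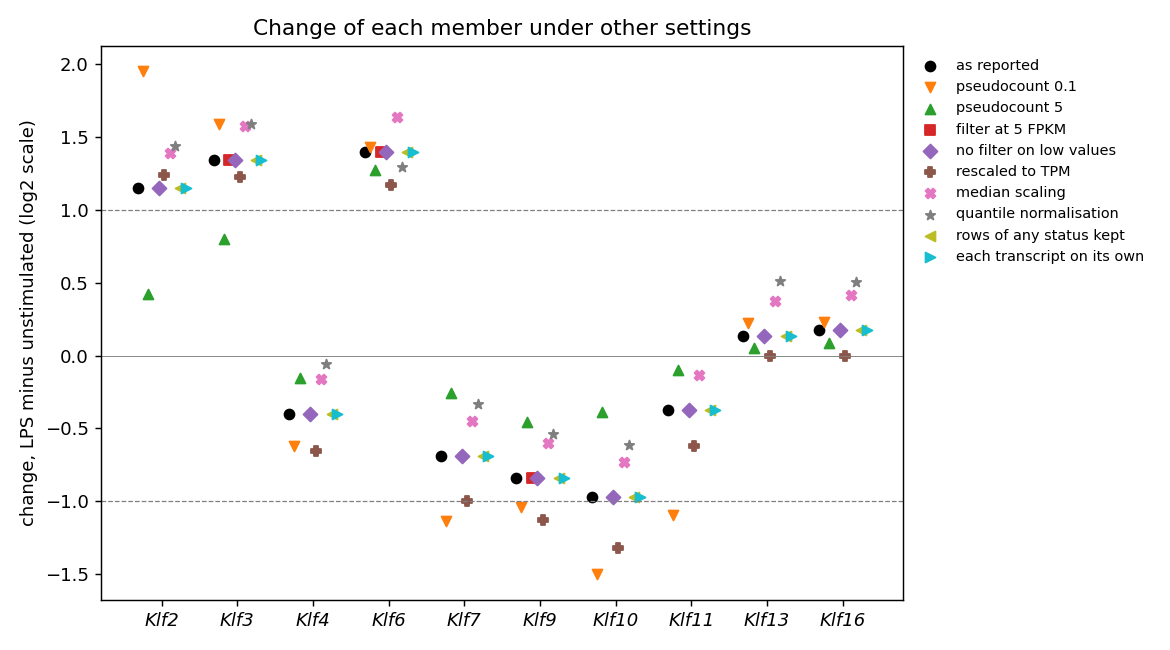
Change of each member, LPS minus unstimulated, as reported (black) and under 9 other settings of pseudocount, filter, scaling and row handling. Dashed lines are the threshold of 1. Klf6 stays between 1.17 and 1.64, Klf13 and Klf16 touch 0 after rescaling to TPM, and Klf2 spreads from 0.43 to 1.95.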

How the data were processed

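RNA of 2 BV2 libraries, 1 stimulated with LPS for 3 h and 1 unstimulated, was analysed. For each, the authors deposited FPKM values with a lower and an upper bound per RefSeq transcript, made with Cufflinks on mm9 per the submitters' processing notes. Not given in the sources used here were its version, the aligner and the use of strand in counting. Per the labels' protocols, libraries were strand-specific and reads 76 bases long. Symbols came from a RefSeq table of GRCm38.p6 (97.6% of 28246 rows matched). Deposited starts were read as 0-based and are written 1-based.

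Rows without status OK in both libraries (391) and small RNA rows (711) were left out, rows of a symbol were summed, and the 10034 genes that reached an FPKM of 1 in at least 1 library were counted. The pseudocount was 1. Fragments behind a value were taken as the square of 2 × FPKM over the half-width of its interval. They lay within 0.05 of a whole number for all 10 members, but only for 60.9% of rows with 0.5 to 50 fragments in the LPS library and 58.0% in the unstimulated library. For the members, the FPKM worth of 1 fragment was lower in the LPS library than in the unstimulated library by a factor of 1.05. Summed over rows of status OK they came to 16930000 in the LPS library and 13800000 in the unstimulated library. Ratio intervals span 2 standard deviations of the log ratio and cover counting error only. Python 3.11.15 with pandas 2.3.3 was used, and the calling step was tested on simulated data. That simulation held counting noise only and genes with an unstimulated FPKM above 5. Of the members only Klf6 and Klf9 lay above that level, so it does not cover the low levels of the others. The members and lists were chosen with earlier results of these data known. Of each list, the genes past the threshold (at most 8 by size) and direct partners of a member are named. Likeness was measured for the members with the highest and lowest change. Alternatives changed the pseudocount, filter, scaling, row summing and status rule. Cd68, a macrophage marker, was not analysed here.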

Additional observations from a re-analysis of the deposited data

How the results depend on the processing

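The number of members called higher was 3 as reported, 1 with a pseudocount of 5 and 2 or 3 under the other 8 alternatives. With a filter at 5 FPKM it was 2, because Klf2 was then not counted. The number called lower was 0 as reported, 2 after rescaling to TPM and 3 with a pseudocount of 0.1. Klf7, Klf9 and Klf10 were those lower with a pseudocount of 0.1 (-1.14, -1.04 and -1.50). Klf11 was at -1.09 there but below the filter. Over 82 values of single members under 9 alternatives, 74 stayed on their side of the threshold, 2 fell short of it, 6 went past it (this Klf11 value among them) and 0 of the values past it had the other sign. Rescaling to TPM moved the median change of all counted genes by -0.24, median scaling by 0.24 and quantile normalisation by 0.11. Higher genes made up 40.7% of all calls as reported, and 24.6%, 61.3% and 53.1% under these settings. Depth limits Klf2, Klf7 and Klf11 most, with 19 to 22 fragments in their lower library. No paired analysis was possible because each group has 1 library.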

Other observations

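The genes next to the members along the genome were looked at after the members' values were known. For each member, the nearest counted gene on either side of its mm9 locus was taken, which gave 20 neighbours at 5561 to 4469140 bases. Of these, 0 passed the threshold upwards and 1 downwards, where the shares over all counted genes were 8.54% and 12.4%. That was Rrm2, the small subunit gene of ribonucleotide reductase, 45472 bases from Klf11, which fell to 4.69 FPKM (4.05 to 5.34) after LPS, against 16.6 FPKM (15.4 to 17.8) unstimulated. The neighbours of the members that rose were within the threshold. Eps15l1, 19343 bases from Klf2, was at 19.1 FPKM (17.9 to 20.3) after LPS and at 13.9 FPKM (12.8 to 14.9) unstimulated. Tbc1d1, 452037 bases from Klf3 on its lower-coordinate side, was at 7.33 FPKM (6.84 to 7.82) after LPS and 3.56 FPKM (3.21 to 3.91) unstimulated, with separate intervals and a change of 0.87. Tlr1, 94705 bases away on the other side of Klf3, was at 6.57 FPKM (5.87 to 7.26) after LPS and at 8.98 FPKM (8.15 to 9.81) unstimulated. The counted genes nearest to Klf6 were far from it, Akr1e1 at 1252325 bases and Pitrm1 at 677764 bases. Akr1e1 was at 27.2 FPKM after LPS and 40.1 FPKM unstimulated, and Pitrm1 at 33.0 FPKM after LPS and 38.3 FPKM unstimulated.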
